A study of Mus musculus with 6 samples.

Results

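The RNAs described here are the small nuclear, nucleolar and scaffold RNAs of epididymal white adipose tissue (eWAT), chosen by gene symbol and by a minimum of 10 counts summed over the 6 libraries. Of 40213 genes in the deposited table, 174 symbols belonged to these families, and 21 of them reached the minimum and are the members: 8 products of RNA polymerase III and 13 of RNA polymerase II. The other 153 comprised 26 symbols with 1 to 9 counts and 127 with none. The 3 RFP KO-HFD and 3 WT-HFD libraries came from eWAT of male RFP KO mice and male WT littermates after a 60% high-fat diet (HFD) for 12 weeks that began at 8 to 10 weeks of age. The labels give no mouse for a library, so p-values measure the spread between libraries. RFP is the protein encoded by Trim27, the KO mice lack it in the whole body according to the study, and both groups were on the HFD. The submitters label the cell type adipocyte, but the tissue was the whole fat pad.

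Most RNAs of these families carry no poly(A) tail. RNA polymerase III makes 7SK, which together with HEXIM proteins holds the elongation factor P-TEFb inactive, 7SL, the scaffold of the signal recognition particle that brings secretory proteins to the endoplasmic reticulum, the RNAs of RNase P and RNase MRP, the Y RNAs and the vault RNA. Polymerase II makes most spliceosomal U RNAs and the nucleolar RNAs, of which box C/D RNAs mainly guide methylation and box H/ACA RNAs pseudouridylation. Many nucleolar RNAs are cut out of the introns of a host gene, whereas U3 and U13 have promoters of their own. Libraries were built with the CORALL kit on poly(A)-selected RNA, and the labels also name a step that removes ribosomal RNA, so that the counts describe what was left of these RNAs after that selection and not their full amount in the tissue.

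The sequences below, from the GENCODE M21 transcripts of the GRCm38 build, show the RNAs on which the results turn. Of the 21 members, 19 had a transcript there within 10 bases of the length in the deposited table. The first is the 5′ part of 7SK, bases 1 to 100 of the 331 transcribed from chr9:78175303-78175633 (minus strand), which covers most of the hairpin that HEXIM binds; capitals mark the GATC motif, the letters GATC on this strand, which occurred 3 times.
Rn7sk: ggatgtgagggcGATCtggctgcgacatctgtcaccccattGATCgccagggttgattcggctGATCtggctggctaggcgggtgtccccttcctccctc
The last 40 bases of the Y RNAs (minus strand of chr6:47788069-47788180 for Rny1, plus strand of chr6:47781624-47781725 for Rny3) show the run of T, in capitals, at which polymerase III stops and whose RNA form is bound by the La protein.
Rny1: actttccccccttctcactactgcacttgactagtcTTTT
Rny3: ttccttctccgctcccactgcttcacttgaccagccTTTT
The next pair, U3 genes that differ at 32 of 216 aligned positions (85.2% identity), is given because the counts of U3 fell on different genes in different libraries; capitals mark the bases that differ. Snord3a lies at chr10:40258467-40258679 and Snord3b4 at chr11:87462286-87462501, both on the plus strand, and Snord3b3 differs from Snord3b4 by 1 base of 216 (99.5% identity).
Snord3a: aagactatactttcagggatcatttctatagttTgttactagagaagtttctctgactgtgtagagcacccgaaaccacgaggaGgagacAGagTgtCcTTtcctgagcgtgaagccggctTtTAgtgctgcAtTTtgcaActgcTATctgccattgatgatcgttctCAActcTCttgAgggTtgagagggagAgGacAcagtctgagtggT
Snord3b4: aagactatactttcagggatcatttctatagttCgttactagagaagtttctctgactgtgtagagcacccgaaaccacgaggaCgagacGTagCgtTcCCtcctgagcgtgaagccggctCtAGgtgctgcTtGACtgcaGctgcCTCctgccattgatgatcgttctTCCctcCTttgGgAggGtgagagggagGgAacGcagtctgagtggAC

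The run of T at the 3′ end was 4 bases in Rny1 and Rny3, 3 in Rn7sk and 2 in the 7SL genes, and the annotated ends of Rpph1 and Rmrp had none. No matched member held a run of A longer than 4 bases, and the longest run in a member was 2 to 4 bases, with a median of 3. In the 85 other symbols of the families with a matched transcript, the longest run was 1 to 8 bases, also with a median of 3.

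Members and the rest of their families differed in length and in class. Members were 98 to 345 bases long in the deposited table, with a median of 212, and the other symbols 28 to 397 bases, with a median of 89. Of 28 symbols of 150 or more bases, 15 were members, against 6 of 146 shorter ones; this limit was chosen after the values were seen. By class, 8 of 9 polymerase III symbols were members, all but the single U6-type symbol, and 13 of 165 polymerase II symbols, among them 7 of 106 box C/D, 3 of 40 box H/ACA and 1 of 9 scaRNA symbols. Terc, the RNA template of telomerase and the longest symbol at 397 bases, had 0 counts in all 6 libraries. Just inside the minimum stood Rnu5g and Snord17 with 10 counts each, and just outside it Snora23 with 8 and Snord118 and Snord82 with 7 each.

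**Figure D1:**
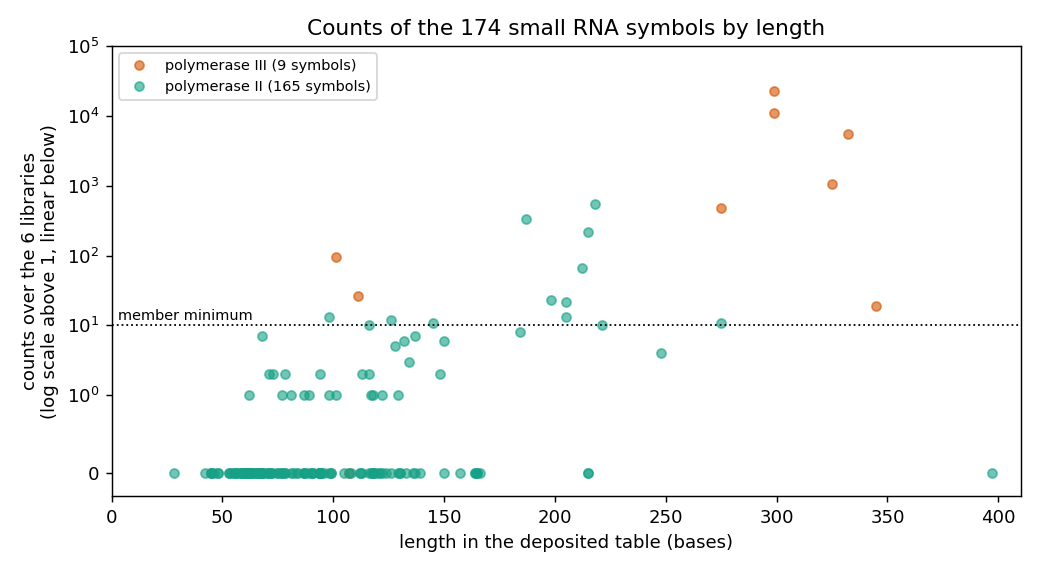
Counts summed over the 6 libraries (vertical axis, log scale above 1) against the length in the deposited table in bases (horizontal axis) for the 174 symbols, 9 of polymerase III and 165 of polymerase II; the dotted line is the minimum of 10 counts. Most short polymerase II symbols lie at 0, and the 4 members with the most counts are 299 bases or longer.

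The library totals were 4870239, 13924363 and 13309044 counts in RFP KO-HFD 1, 2 and 3, against 15216306 to 17215047 in the WT-HFD libraries. Trim27 was at 19.4, 4.10 and 4.63 CPM after TMM normalization (CPM, the usual unit scaled to library size) in the RFP KO-HFD libraries, against 22.7, 40.2 and 29.5 in WT-HFD, so that the library labelled RFP KO-HFD 1 was near the WT-HFD level for the targeted gene. That library also stood apart in cell type markers. The 10 adipocyte markers summed to 0.0318%, 2.02% and 2.55% of counts in RFP KO-HFD 1, 2 and 3, against 1.23% to 1.98% in WT-HFD, with Adipoq and Plin1 at 0 in RFP KO-HFD 1. The 10 hepatocyte markers took 2.59%, 0.1796% and 0.293%, against 0.0221% to 0.0550%, and none was at 0 in any library. Macrophage markers took 0.0397%, 0.0992% and 0.0570% in RFP KO-HFD, below each of the WT-HFD values of 0.258%, 0.111% and 0.256%. WT-HFD 2 stood apart in smooth muscle markers, at 2.25%, against 0.00226% to 0.0951% in the other 5 libraries, and in epididymal markers, at 0.110%, and RFP KO-HFD 2 in male germ cell markers, at 0.0470%. The main counts and tests are therefore given with and without RFP KO-HFD 1; the part of the marker differences in the results was not tested.

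Both classes took a larger share of every RFP KO-HFD library than of any WT-HFD library. The 8 polymerase III members summed to 1252, 695 and 1683 CPM of the library total in RFP KO-HFD, against 68.9, 60.5 and 60.2 CPM in WT-HFD. The 13 polymerase II members summed to 47.6, 21.9 and 46.5 CPM in RFP KO-HFD, against 2.81, 2.23 and 3.08 CPM in WT-HFD. In RFP KO-HFD 1 this sum was 219 counts on Snord3b3, a U3 copy, and 13 on Snord13, with none on any other polymerase II member. The exact 95% binomial interval of the lowest RFP KO-HFD value was 681 to 709 CPM for polymerase III and 19.5 to 24.5 CPM for polymerase II, against highest WT-HFD values with intervals of 64.9 to 73.0 and 2.31 to 4.03 CPM; these cover counting error only. The groups did not overlap for either class, and the 2 classes stood in nearly the same proportion. The log2 ratio of polymerase III to polymerase II counts was 4.72, 4.99 and 5.18 in RFP KO-HFD and 4.61, 4.76 and 4.29 in WT-HFD, a difference of 0.41 between group means whose groups overlapped. With all of 7SL left out the difference was 0.11, and with all of 7SL and U3 left out it was 0.20. The ratios without 7SL and U3 were 6.86, 3.94 and 3.31 in RFP KO-HFD and 4.30, 3.97 and 5.25 in WT-HFD, which also overlapped. They rest on 13, 157 and 252 polymerase II counts in RFP KO-HFD, against 14, 14 and 6 in WT-HFD. Leaving out only Rn7s1 and Snord3b4, the largest gene of each class, gave −1.82, but this removes 1 copy of each family, and RFP KO-HFD 1 has no count on Snord3b4. In bulk tissue, fewer cells of a type and less RNA per cell cannot be told apart, and a share also depends on everything else in the library.

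**Figure D2:**
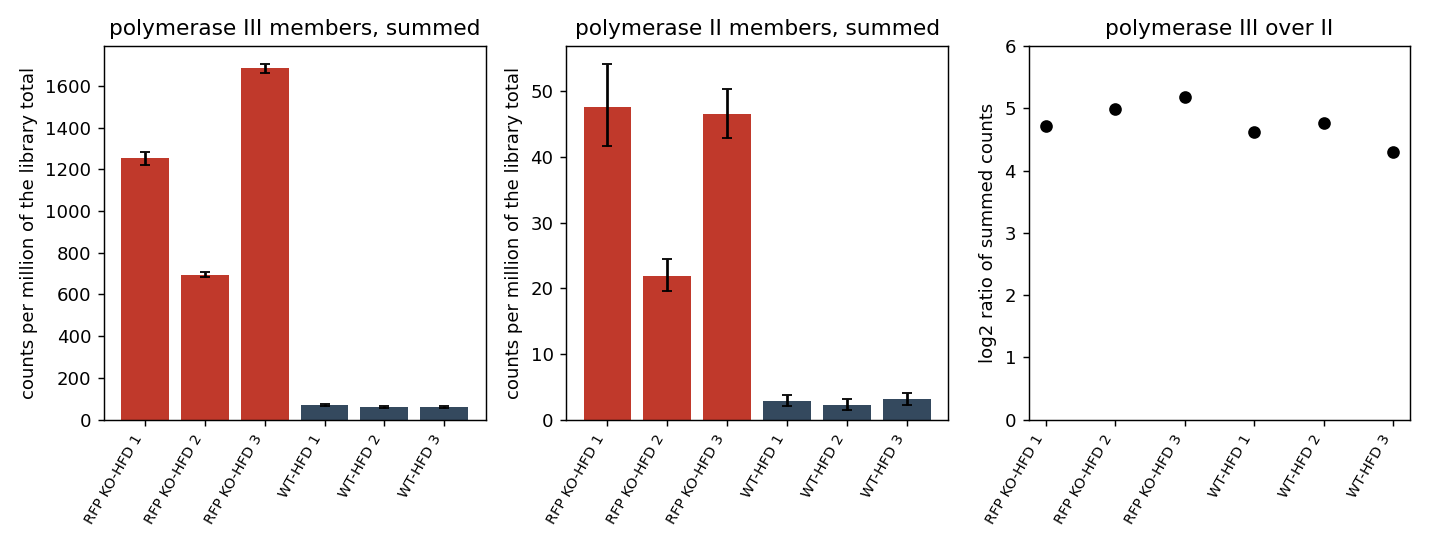
Summed counts of the 8 polymerase III (left) and 13 polymerase II members (middle) in CPM of the library total, with exact 95% binomial intervals for counting error, and the log2 ratio of the class sums (right), for RFP KO-HFD (red) and WT-HFD (dark) libraries. All RFP KO-HFD bars stand above all WT-HFD bars in both classes, while the ratios, 4.29 to 5.18, overlap.

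Other features of the libraries also differed between the groups. Gm26917, a predicted gene outside the families, took 9.53%, 12.5% and 24.5% of counts in RFP KO-HFD, against 3.39%, 4.18% and 3.56% in WT-HFD. The mitochondrial ribosomal RNAs mt-Rnr1 and mt-Rnr2 took 1.76%, 0.451% and 3.58%, against 0.250%, 0.0648% and 0.439%. Protein-coding genes took 87.3%, 85.9% and 70.8%, against 95.6%, 94.8% and 95.2%. The 16 predicted genes that the table annotates as snRNA, which the choice by symbol leaves out, summed to 40.04, 32.5 and 42.6 CPM, against 0.795, 1.05 and 2.15 CPM. Rn4.5s, another small polymerase III RNA, stood at 5.95, 15.9 and 42.1 CPM, against 3.67, 2.30 and 3.60 CPM. With mitochondrially encoded genes and Gm26917 left out of the denominator, polymerase III members were at 1837, 875 and 2616 CPM, against 75.8, 65.4 and 65.8 CPM. The part of library composition, of carry-over through the poly(A) selection and of the cell type makeup in the difference between genotypes was not tested.

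Of the 21 members, 8 had enough counts to be tested gene by gene, and 0 passed an adjusted p of 0.05 by edgeR's quasi-likelihood test with Benjamini-Hochberg adjustment over 14706 genes (0% of all genes did). At an unadjusted p under 0.05, 6 of the 8 were higher in RFP KO-HFD, against 4.05% of all genes, and 0 were lower, against 2.7%. A member reached the test only through its counts, most of which came from RFP KO-HFD, so this count describes the 8 and not the families. For 6 of the 21 members, every RFP KO-HFD library exceeded every WT-HFD library, against 5.32% of the 19325 genes with 10 or more counts. The 6 were Rn7s1, Rn7s2, Rn7sk, Rpph1, Rmrp and Rny3. The median log2 fold change was 4.48 for the 8 tested members and −0.13 for all genes tested. In the fit with no filter on low counts all 21 members had a positive log2 fold change, with a median of 3.57 for polymerase III and 3.64 for polymerase II members, beside −0.25 for all 24659 genes. The minimum of 10 counts favours this direction too, since several members reached it only through RFP KO-HFD. Among the 26 symbols with 1 to 9 counts, 8 had counts in RFP KO-HFD only, 12 in WT-HFD only and 6 in both. They had 39 counts in all in RFP KO-HFD and 32 in WT-HFD. These are raw counts, and the RFP KO-HFD libraries were shallower, at 4870239 to 13924363 counts, against 15216306 to 17215047 in WT-HFD. Equal raw counts therefore stand for a higher level in RFP KO-HFD. In the same fit 8 of the 21 were higher at an unadjusted p under 0.05, against 3.82% of genes. Without RFP KO-HFD 1, 9 members were tested and all 9 were higher at an unadjusted p under 0.05, against 12.1% of genes, and Rn7sk alone passed the adjusted threshold, as did 0.0128% of genes.

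**Figure D3:**
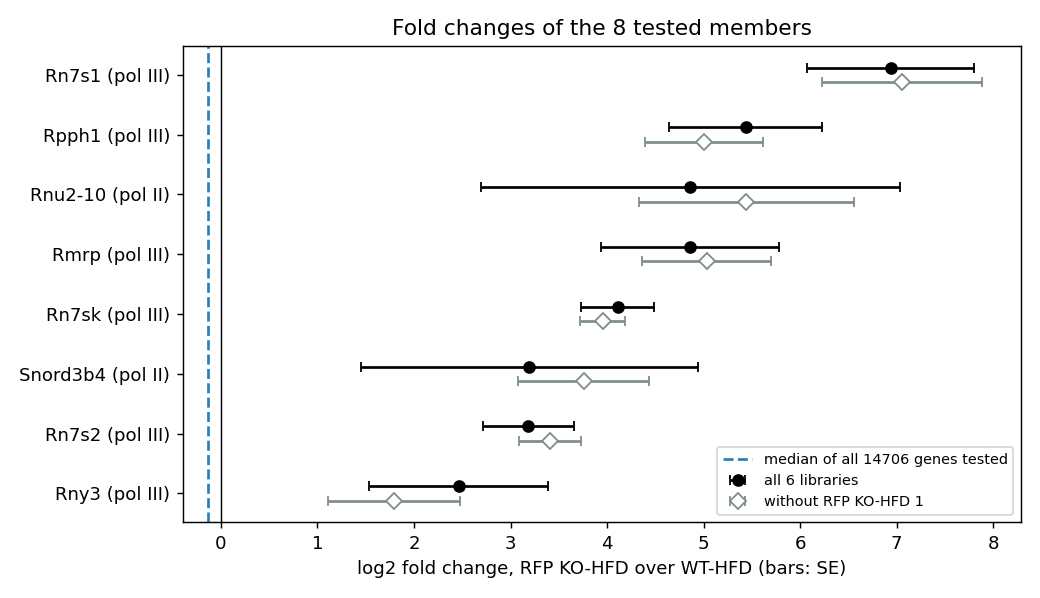
Log2 fold change of RFP KO-HFD over WT-HFD for the 8 tested members with all 6 libraries (filled circles) and without RFP KO-HFD 1 (open diamonds); bars are standard errors and the dashed line is the median of all genes tested, −0.13. All 8 lie above 0 in both fits, and the polymerase II members Rnu2-10 and Snord3b4 have the widest errors with all 6 libraries.

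Among the scaffold RNAs of polymerase III, Rn7sk had the smallest error. Rn7sk was at 223, 143 and 199 TMM-normalized CPM in the RFP KO-HFD libraries, against 12.1, 10.5 and 10.1 in WT-HFD. The groups stood far apart and the library labelled RFP KO-HFD 1 was the highest. Its log2 fold change was 4.11, with a standard error (SE) of 0.38 and an adjusted p of 0.267 by edgeR, and with RFP KO-HFD 1 left out it was 3.95 (SE 0.23, adjusted p = 0.0360). The table places the gene on chromosome 9, at bases 78082584 to 78082915 on the minus strand, and its information sheet gives the build as GRCm39.

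Summed, the 7SL genes had the highest level of all families in every library. Rn7s1 was at 719, 272 and 1689 CPM in RFP KO-HFD, against 6.79, 6.83 and 8.20 CPM in WT-HFD (893 ± 725 and 7.27 ± 0.803, SD, n = 3 each). Rn7s2 was at 208, 259.9 and 503 CPM in RFP KO-HFD, against 39.8, 33.1 and 34.0 CPM in WT-HFD (324 ± 157 and 35.6 ± 3.64, SD, n = 3 each). Neither passed (adjusted p = 0.599 for each by edgeR, and 0.0653 and 0.0633 without RFP KO-HFD 1). Since the annotated transcripts of Rn7s1 and Rn7s2 are identical over 300 bases, their values are uncertain one by one, and what divided the reads between them was not tested. Rn7s1 held 77.5%, 51.1% and 77.1% of the 7SL counts in RFP KO-HFD, against 14.6%, 17.1% and 19.4% in WT-HFD. The groups did not overlap in this division either. Summed, 7SL took 942, 522 and 1495 CPM of the library total, against 52.0, 46.1 and 46.9 CPM, and the fit on summed copies gave a log2 fold change of 4.83 (SE 0.68, adjusted p = 0.599 by edgeR).

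The RNAs of the related enzymes RNase P, which trims the leader from tRNA precursors, and RNase MRP, which cleaves ribosomal RNA precursors, were low in WT-HFD. Rpph1, the RNase P RNA, was at 64.9, 22.2 and 43.1 CPM in RFP KO-HFD, against 1.53, 0.398 and 1.04 CPM in WT-HFD. Its log2 fold change was 5.44 (SE 0.79, adjusted p = 0.599 by edgeR; 0.0653 without RFP KO-HFD 1). Rmrp, the RNase MRP RNA, was at 11.9, 8.70 and 29.3 CPM in RFP KO-HFD, against 0.821, 0.512 and 0.366 CPM in WT-HFD. Its log2 fold change was 4.86 (SE 0.92, adjusted p = 0.599; 0.0653 without RFP KO-HFD 1). In both, the highest WT-HFD library was below the lowest RFP KO-HFD library by a wide margin, although WT-HFD values rest on 7 to 28 counts.

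The ratios between polymerase III members varied among libraries. The log2 ratio of 7SK to RNase P counts was 1.78, 2.69 and 2.21 in RFP KO-HFD, against 2.98, 4.72 and 3.27 in WT-HFD. This was the only one of 8 ratios between classes whose groups did not overlap, and it was picked out after the values were seen. Its WT-HFD values rest on 28, 7 and 20 counts of Rpph1. The log2 ratio of 7SK to 7SL was −2.05, −1.90 and −3.46 in RFP KO-HFD, against −1.95, −1.92 and −2.07 in WT-HFD, where the 3 libraries lay close together.

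**Figure D4:**
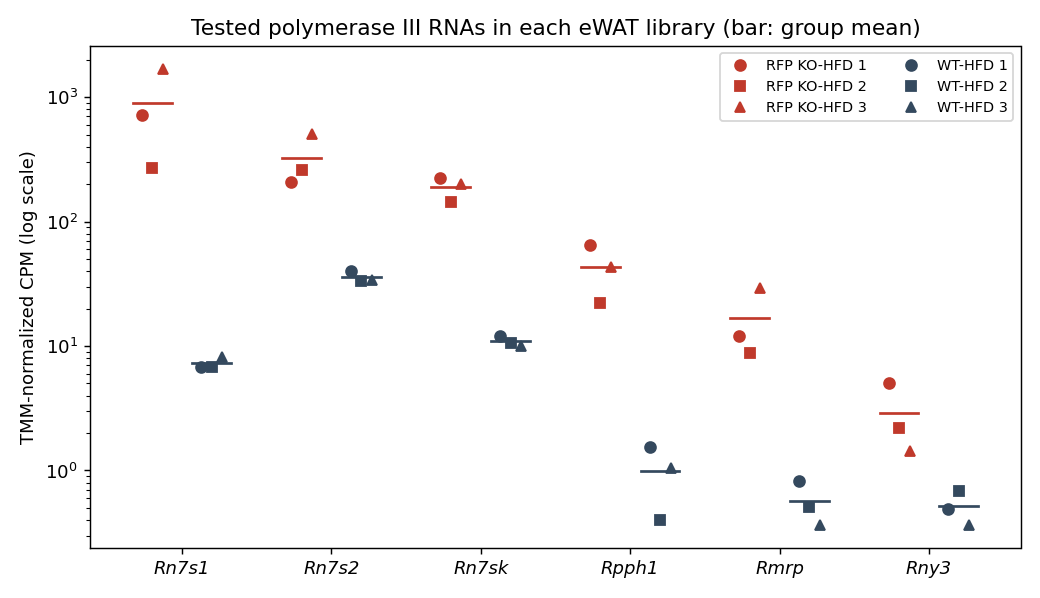
TMM-normalized CPM (log axis) of the 6 tested polymerase III RNAs in each RFP KO-HFD (red, left of each pair) and WT-HFD (dark, right) library; horizontal bars are group means. The groups do not overlap for any of the 6, from Rn7s1 at 272 to 1689 CPM in RFP KO-HFD, against 6.79 to 8.20 in WT-HFD, to Rny3 at 1.43 to 5.05, against 0.366 to 0.683.

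The Y RNAs, which bind the Ro60 protein and La, were scarce. Rny3 had 25, 30 and 13 counts in RFP KO-HFD, against 9, 12 and 7 in WT-HFD. After normalization this was 5.05, 2.19 and 1.43 CPM, against 0.493, 0.683 and 0.366 CPM, the smallest log2 fold change of the tested members at 2.46 (SE 0.93, adjusted p = 0.690 by edgeR; 1.80 and 0.184 without RFP KO-HFD 1). Rny1 was too low for the test, with 0, 8 and 10 counts in RFP KO-HFD, against 1, 5 and 2 in WT-HFD. Vaultrc5, the RNA of the vault particle, had 0, 1 and 15 counts in RFP KO-HFD, against 2, 1 and 0 in WT-HFD, so that a single library held most of them. A count of 0 in the shallow RFP KO-HFD 1 allows up to 0.616 CPM of its total, and in the other 5 libraries up to 0.174 to 0.225 CPM.

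With CPM of the library total divided by the annotated length in kilobases, the order of mean levels in RFP KO-HFD was Rn7s1 (2396), Rn7s2 (903), Rn7sk (505), Rpph1 (120.1), Rmrp (49.3) and Rny3 (27.3). In WT-HFD it was Rn7s2 (134), Rn7sk (37.0), Rn7s1 (27.4), Rny3 (5.76), Rpph1 (3.42) and Rmrp (2.32). In RFP KO-HFD the ranges of Rn7s1 (892 to 3854) and Rn7s2 (708 to 1148) overlapped. In WT-HFD those of Rn7sk (33.8 to 40.7) and Rn7s1 (25.4 to 30.5) did not, while Rny3 (4.03 to 7.81) and Rpph1 (1.42 to 5.27) did. Rn7s1 and Rn7s2 are identical over 300 bases, so their separate places in both orders are uncertain. Summed, 7SL was above 7SK in every library. In WT-HFD it was at 52.0, 46.1 and 46.9 CPM of the library total, against 13.5, 12.2 and 11.2 CPM for 7SK.

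U3 had the most counts of any RNA among the polymerase II members. It is the box C/D RNA that base-pairs with the ribosomal RNA precursor during the making of 18S rRNA. In RFP KO-HFD 2, however, U3 had 148 counts, against 157 for the other polymerase II members together. Snord3b4 had 0, 125 and 331 counts in RFP KO-HFD, against 26, 19 and 47 in WT-HFD. Snord3b3 had 219, 0 and 0 counts in RFP KO-HFD, against 0 in each WT-HFD library. Snord3a had 0, 23 and 36 counts in RFP KO-HFD, against 6, 1 and 0 in WT-HFD. RFP KO-HFD 1 thus had all its U3 counts on Snord3b3 and none on Snord3b4, which differs from it by 1 base, and the other 5 libraries had none on Snord3b3; these genes cannot be read one by one. Summed, U3 was at 45.0, 10.6 and 27.6 CPM of the library total in RFP KO-HFD, against 1.96, 1.31 and 2.73 CPM in WT-HFD. The groups did not overlap once the copies were summed, whereas Snord3b4 alone overlapped (log2 fold change 3.20, SE 1.74, adjusted p = 0.812 by edgeR; 3.76 when RFP KO-HFD 1 was left out and 1.45 when RFP KO-HFD 3 was). The fit on summed copies gave U3 a log2 fold change of 4.15 (SE 0.78, adjusted p = 0.599).

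**Figure D5:**
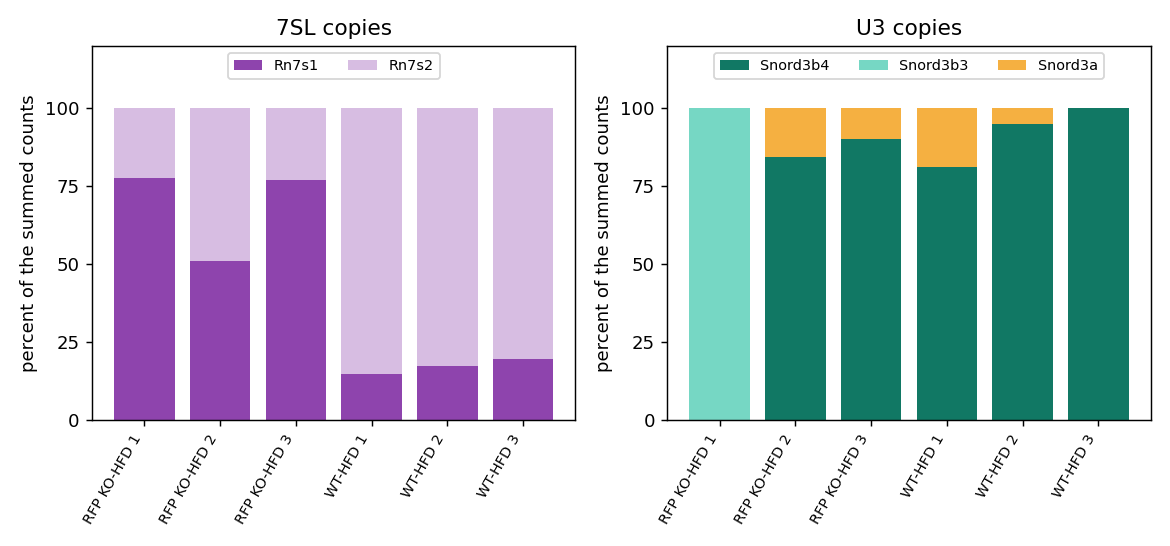
Division of the summed 7SL counts between Rn7s1 and Rn7s2 (left) and of the summed U3 counts among Snord3b4, Snord3b3 and Snord3a (right), as percent of the sum in each library. Rn7s1 holds 51.1% to 77.5% of 7SL in RFP KO-HFD and 14.6% to 19.4% in WT-HFD, and RFP KO-HFD 1 has all its U3 counts on Snord3b3.

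The U RNAs of the spliceosome were represented by Rnu2-10, a U2 gene whose RNA pairs with the intron branch site, and Rnu5g, a U5 gene whose RNA holds the exon ends. Rnu2-10 had 0, 124 and 189 counts in RFP KO-HFD, against 7, 11 and 0 in WT-HFD. RFP KO-HFD 2 and 3 were far above WT-HFD and RFP KO-HFD 1 had none, so that the groups overlapped and the log2 fold change of 4.86 had an SE of 2.17 (adjusted p = 0.760 by edgeR). Without RFP KO-HFD 1 it was 5.44 (SE 1.11, adjusted p = 0.0935). Rnu5g had 0, 0 and 9 counts in RFP KO-HFD, against 1, 0 and 0 in WT-HFD. Polymerase II members other than U3 summed to 2.67, 11.3 and 18.9 CPM, against 0.856, 0.920 and 0.349 CPM.

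The other members had 23 counts or fewer in all. Snord13, the U13 RNA, which in human cells guides acetylation of 18S rRNA, had 13 counts in RFP KO-HFD 1 and 0 in RFP KO-HFD 2 and 3 and in WT-HFD. Set against a floor of 3 counts over the WT-HFD group, the pooled RFP KO-HFD level of Snord13 was at least 6.59-fold higher, which rests on RFP KO-HFD 1 alone. The 7 intron-borne members together had 0, 33 and 54 counts in RFP KO-HFD, against 6, 3 and 6 in WT-HFD, or 0, 2.37 and 4.06 CPM, against 0.367, 0.197 and 0.349 CPM. In this group the library labelled RFP KO-HFD 1 lay at 0 and the other 2 RFP KO-HFD libraries above WT-HFD.

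In the fit with no filter on low counts, 5 of the 7 intron-borne members had a positive and their host gene a negative log2 fold change. In that fit all 21 members were positive, and 14301 of all 24659 genes were negative, with a median of −0.25. Of the 5, Snora73a and Snora73b share the host Snhg3, and Snhg1, the host of Snord22, was at −0.20. Snora73a and Snora73b, copies of the box H/ACA RNA U17 that takes part in 18S rRNA processing and with 7 different bases in 205, lie in introns of Snhg3. Together they had 0, 13 and 18 counts in RFP KO-HFD, against 2, 0 and 2 in WT-HFD. Snhg3 itself had 0, 28 and 6 counts in RFP KO-HFD, against 79, 71 and 69 in WT-HFD. The host was thus below WT-HFD in every RFP KO-HFD library (log2 fold change −2.08, SE 1.30, adjusted p = 0.847 by edgeR) while the intron RNAs were above all WT-HFD libraries in 2 of the 3. Snora74a, in the span of Snhg4, had 0, 9 and 13 counts in RFP KO-HFD, against 0, 0 and 1 in WT-HFD, and Snhg4 had 0, 18 and 4 counts, against 17, 36 and 36. Snord17, in Snx5, which encodes a sorting nexin, had 0, 2 and 5 counts in RFP KO-HFD, against 3, 0 and 0 in WT-HFD. Snx5 was at 54.8, 68.6 and 31.2 CPM in RFP KO-HFD, against 205, 114 and 194 CPM in WT-HFD (log2 fold change −1.63, SE 0.44, adjusted p = 0.599). Snord22 had 0, 2 and 6 counts in RFP KO-HFD, against 1, 3 and 0 in WT-HFD, and its host Snhg1 had 0, 44 and 16 counts, against 41, 20 and 41. Snord15b had 0, 4 and 5 counts in RFP KO-HFD, against 0, 0 and 2 in WT-HFD. Its host Rps3, which encodes a ribosomal protein, was at 628, 328 and 269 CPM of the library total, against 343, 364 and 357 CPM. Scarna13, a Cajal body RNA in Snhg10, had 0, 3 and 7 counts in RFP KO-HFD, against 0, 0 and 1 in WT-HFD, and Snhg10 had 0, 29 and 0, against 4, 7 and 3. The difference in log2 fold change, member minus host, was 1.92 to 6.14 over these 7 in the fit with no filter, with a median of 3.62, and the median was 2.04 to 5.95 with 1 library left out. With Snord3b3 and Snord3b4, which lie in the span of Tex14 but are not its intron products, the median over 9 was 5.03. These values have no test and rest on few counts. The minimum count by which members were chosen favours a positive member value, since most counts of the 7 intron-borne members came from RFP KO-HFD. Among the 26 symbols with 1 to 9 counts, 8 had counts in RFP KO-HFD only, 12 in WT-HFD only and 6 in both. The differences from the hosts therefore do not decide whether intron RNAs and hosts diverged.

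The proteins that bind or make these RNAs, whose mRNAs are polyadenylated, showed no such shift. Of 143 tested genes in 11 lists, 67 had a positive and 76 a negative log2 fold change, beside 6464 and 8242 of all 14706 genes tested. Their median was −0.03, beside −0.13 for all genes, and 0 passed the adjusted threshold. At an unadjusted p under 0.05 only Rpp25l and Ro60 were higher and Tep1 was lower, beside 4.05% and 2.7% of all genes. In the 7SK and P-TEFb list 3 of 7 were positive, with a median of −0.06. Hexim1, the inhibitor that 7SK carries, was at 28.1, 49.4 and 33.5 CPM in RFP KO-HFD, against 66.1, 75.9 and 53.5 CPM in WT-HFD (log2 fold change −0.82, SE 0.37, adjusted p = 0.760 by edgeR). Every RFP KO-HFD value of Hexim1 lay below every WT-HFD value, but the gene was named for the smallest p of its list (unadjusted p = 0.067 by edgeR). How many of all genes lay below in this way was not counted. A link between Hexim1 and Rn7sk was not tested. Ccnt1, the cyclin T1 subunit of P-TEFb, overlapped between groups (0.47, SE 0.35, adjusted p = 0.892).

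All 10 genes of the signal recognition particle list, where 7SL is the RNA, had a negative log2 fold change, beside 8242 of 14706 genes tested. Their median was −0.64, or −0.25 without RFP KO-HFD 1, and 0 of 10 were under an unadjusted p of 0.05. Srp14 was at 0, 94.7 and 97.1 CPM in RFP KO-HFD, against 101, 86.3 and 92.6 CPM in WT-HFD. Srpr was at 6.47, 65.9 and 79.7 CPM, against 57.5, 46.6 and 50.6 CPM. In both, RFP KO-HFD 1 alone was below every WT-HFD library. Srp9, which binds the Alu part of 7SL, was at 35.8, 33.2 and 22.9 CPM in RFP KO-HFD, against 63.5, 41.8 and 61.6 CPM in WT-HFD (adjusted p = 0.755 by edgeR). Srp54c was at 14.8, 16.3 and 21.7 CPM, against 39.9, 28.9 and 32.0 CPM (adjusted p = 0.752), but shares sequence with Srp54a and Srp54b and is uncertain for that reason. Of the RNase P and MRP proteins, 3 of 11 were positive and 8 of 11 had no count in RFP KO-HFD 1. Rpp25l was at 20.8, 29.5 and 31.7 CPM in RFP KO-HFD, against 9.08, 13.7 and 13.8 CPM in WT-HFD (log2 fold change 1.16, SE 0.46, adjusted p = 0.717). Its paralog Rpp25 was at 0, 0.658 and 0 CPM, against 2.46, 2.05 and 2.14 CPM (adjusted p = 0.770). Ro60, the Y RNA binding protein, was at 20.2, 16.2 and 19.2 CPM in RFP KO-HFD, against 7.50, 6.89 and 8.72 CPM in WT-HFD (log2 fold change 1.27, SE 0.52, adjusted p = 0.724). Tep1, a protein of vaults and telomerase, was at 24.7, 35.5 and 42.7 CPM, against 57.4, 79.1 and 58.1 CPM (−0.92, SE 0.37, adjusted p = 0.717).

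All 4 box C/D core proteins had a positive log2 fold change, beside 6464 of 14706 genes tested. Their median was 0.85, or 0.41 without RFP KO-HFD 1, and none had an unadjusted p under 0.05. Fbl, the methyltransferase fibrillarin, was at 207, 45.6 and 51.8 CPM in RFP KO-HFD, against 28.6, 41.9 and 33.6 CPM in WT-HFD (adjusted p = 0.752 by edgeR). Nop58, a core scaffold, was at 54.6, 27.3 and 36.7 CPM, against 21.999, 19.7 and 20.8 CPM (adjusted p = 0.760). In both, RFP KO-HFD 1 was the highest library. Of 7 box H/ACA and telomerase proteins 4 were positive (median 0.22), with Dkc1, the pseudouridine synthase dyskerin, at 76.2, 10.8 and 20.5 CPM, against 12.3, 10.5 and 9.87 CPM (adjusted p = 0.760), and Wrap53 at 26.1, 11.4 and 16.3 CPM, against 6.90, 7.80 and 8.25 CPM (adjusted p = 0.775). The spliceosomal snRNP list had 18 of 25 positive (median 0.12), with adjusted p = 0.904 for Lsm2 and 0.911 for Lsm11.

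The machinery that transcribes and degrades these RNAs was also near the middle of all genes. Of 22 genes of RNA polymerase III and its factors 7 were positive and 15 negative, with a median of −0.19 (0.05 without RFP KO-HFD 1). Bdp1, a subunit of the initiation factor TFIIIB, had the smallest p and was high in RFP KO-HFD 1 alone, at 88.8, 9.36 and 8.81 CPM, against 9.25, 6.03 and 6.53 CPM in WT-HFD (adjusted p = 0.760 by edgeR). Gtf3c1, a TFIIIC subunit, had a log2 fold change of −0.42 (SE 0.36, adjusted p = 0.911). Of 21 genes for transcription and 3′ processing of U RNAs 8 were positive (median −0.16), with Snapc3 at an adjusted p of 0.809 and Ints6 at 0.815. Of 16 genes of the nuclear exosome and RNA decay 11 were positive (median 0.15), with Exosc9, an exosome subunit, at 9.91, 16.4 and 12.9 CPM, against 29.9, 22.9 and 25.6 CPM (log2 fold change −0.9996, SE 0.45, adjusted p = 0.760), and Exosc4 at 34.8, 33.6 and 50.1 CPM, against 19.4, 33.1 and 22.8 CPM (adjusted p = 0.845). Of 15 snoRNA host lncRNAs 7 were positive and 12 had no count in RFP KO-HFD 1 (median −0.12; 0.42 without it), with Gas5 at 91.4, 30.9 and 28.6 CPM, against 28.1, 23.8 and 25.01 CPM (adjusted p = 0.818).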

How the data were processed

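eWAT mRNA was sequenced in 3 RFP KO-HFD and 3 WT-HFD libraries. According to the study, STAR aligned the reads and Salmon quantified them; the submitters' notes give FastQC, Trimmomatic, STAR and mm10, without versions, and the information sheet names GRCm39. The authors deposited whole-number counts per gene, which were tested as they stand; their normalized values and their fold changes and p-values were not used. Genes were kept by filterByExpr (min.count 10, min.total.count 15), leaving 14706 of 40213, and fitted in edgeR 4.0.16 (glmQLFit and glmQLFTest, robust, TMM factors, Benjamini-Hochberg) under R 4.3.3; genotype was the sole term. The fit was tested on simulated data. Class shares are CPM of the library total and have no test.

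The members and the 11 gene lists were chosen with earlier results of these data known. Named were all polymerase III members, the 4 highest members of each polymerase II class and the 3 tested members of smallest p in each direction. Up to 2 genes of smallest p per list, hosts and Trim27 were also named. The 3 remaining members, Snord15b, Snord17 and Snord22, Snhg10, Rn4.5s and Gm26917 were added after their values were seen. Srp14, Srpr, mt-Rnr1 and mt-Rnr2 are also outside this rule, and Srp14 and Srpr have the largest p of their list. A host was the smallest gene on the same strand whose span holds the RNA. Other fits used limma 3.58.1 (voom, plain or with quality weights), DESeq2 1.42.0, other normalization factors and filters, a block for the replicate number, or 5 of the 6 libraries. Summing near-identical copies, leaving out whole families and the host median over the 7 intron-borne members were chosen after seeing the data. The 7SL sequence is not reported here.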

Additional observations from a re-analysis of the deposited data

How the results depend on the processing

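With all 6 libraries edgeR called 0 genes at an adjusted p under 0.05, against 488 with DESeq2 and 1039 with limma-voom with quality weights; 992 genes had an unadjusted p under 0.05. Of the 8 members tested these tools called 6 and 7, beside the 488 and 1039 of 14706 genes. Both calls include the identical Rn7s1 and Rn7s2. With 1 library left out, 0 to 2 genes and 0 to 1 members were called, the upper values without RFP KO-HFD 1. Members higher at an unadjusted p under 0.05 numbered 5 to 9 of 8 or 9 tested with 1 library left out, where 12.1% of all genes were higher without RFP KO-HFD 1 and 1.82% to 5.32% without another library. They numbered 3 with at least 10 counts in every library, where only 3 members were tested and 7.24% of genes were higher. The log2 fold change of Rn7sk was 4.15 with DESeq2 (adjusted p = 3.05e-28) and 3.98 with quality weights (adjusted p = 0.000471), both past the threshold, and 3.95 to 4.30 with 1 library left out. The median of the tested polymerase III members was 4.08 with library totals and 3.57 with no filter, against 4.48; library totals moved the median of all genes to −0.50, from −0.13 with TMM. The log2 fold change of each of the 8 tested members was positive in every setting that tested it, the lowest being 0.91 for Snord3b4 with limma-voom. The median difference between members and hosts over 9 was 3.37 to 7.52 with 1 library left out. The minimum count by which members were chosen favours a positive difference here too. Without the largest member of each class the log2 ratio of polymerase III to polymerase II was lower in RFP KO-HFD by 1.82 (difference −1.82) rather than higher by 0.41. That setting removes single copies, Rn7s1 and Snord3b4, to which the libraries assigned different shares of 7SL and U3. With whole families left out the difference was 0.11 without 7SL and 0.20 without 7SL and U3. Both settings were chosen after seeing the data. The one without 7SL and U3 rests on as few as 6 polymerase II counts in WT-HFD 3 and 13 in RFP KO-HFD 1.

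Deviations from the group means were weakly correlated between same-numbered libraries (0.0286, 0.0232 and 0.0520). Between libraries of different number the correlations were −0.0365 to −0.00689. Deviations within a group sum to 0, which ties these values together, so they do not settle whether the numbers pair the libraries. With the replicate number as a block, 0 genes and 0 members were called, 5 of 8 members were higher at an unadjusted p under 0.05, against 1.41% of all genes, and Rn7sk had a log2 fold change of 4.09 (adjusted p = 0.943). Members under the floor of 3 counts in a library cannot be compared there, and nearly identical copies only as sums.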
